A study of Mus musculus with 6 samples.

Results

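The genes described here belong to 3 linked defence systems of blood plasma: complement, coagulation with clot removal, and the acute-phase response. The list held 38 genes chosen by name, 17 of complement, 16 of coagulation and 5 acute-phase proteins, out of 18193 genes measured. A gene was represented by the probe set annotated to it alone with the highest mean over the 6 arrays, a probe set being a group of short oligonucleotides that together read 1 transcript. Of the 38 genes 35 had such a probe set, and C3, C7 and Serpine2 were not analysed here. The samples were whole mammary glands of virgin female mice, 4 months old, all on the FVB/N background. The 3 wild-type glands (WT) were compared with 3 glands of Caveolin-3 knockout mice (Cav-3KO), and no gland was treated. Caveolin-3 is the coat protein of muscle caveolae, and the study's title places its loss beside a milk-producing state of the gland. The labels do not say whether each gland came from a separate mouse, nor describe the knockout allele, so p-values measure only the spread between these samples, which may be technical.

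Complement is a chain of plasma proteases that tags microbes and damaged cells and ends in a pore through the membrane; it can start from antibody through C1 or from sugars through mannose-binding lectins, and host cells carry inhibitors against it. Coagulation runs from tissue factor through a series of clotting factors to thrombin, which cuts fibrinogen into fibrin, while surface proteins of vessels brake it and plasminogen activators dissolve the clot. The liver makes most of these plasma proteins, and fibroblasts, macrophages, endothelium, fat cells and epithelium make some locally. Acute-phase proteins are plasma proteins whose output rises with inflammation. The mammary gland can itself make serum amyloid A and lipopolysaccharide-binding protein.

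The values are log2 expression levels, so a difference of 1 is a 2-fold change, and every difference is knockout minus wild type with its moderated standard error (SE). Array medians lay between 5.77 and 5.8, and the number of arrays, 3 in each group, limits the precision. Cav3 itself could not serve as a check of the genotype: its probe set read 4.79, 5.02 and 4.74 in wild-type 1, 2 and 3 and 4.76, 4.83 and 4.72 in knockout 1, 2 and 3. Its difference of −0.08 ± 0.10 did not pass (adjusted p = 0.679 by limma). No source used here gives whether the probe set reads the deleted part. The luminal epithelial markers were higher in knockout in all 10 of 10 genes, with list means of 9.12 to 9.67 in wild type and 10.76 to 10.86 in knockout, and basal epithelial markers were higher in 7 of 8. White adipocyte markers were lower in 6 of 8, with list means of 11.91 to 12.13 and 11.22 to 11.56. In whole glands, fewer cells of a type and less RNA per cell cannot be told apart.

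Most members sat lower in the knockout gland. Past an adjusted p of 0.05 (limma, Benjamini-Hochberg over all probe sets), 9 of the 35 were lower and 1 was higher, 28.6% of the members beside 16.2% of all genes. The lower ones were 25.7% of the members, beside 8.51% of all genes. They were the complement genes C6, Cfi, Serping1 and C3ar1, the coagulation genes F3, Fgb, Thbd and Tfpi, and the acute-phase gene Hp. The higher one was F2r, 2.86% of the members beside 7.65% of all genes. By sign alone 28 members were below wild type and 7 above, with a median difference of −0.33, beside −0.01 over all genes. The list was chosen with earlier results of these data known, so its shares are a description and no test.

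All 3 knockout arrays lay below all 3 wild-type arrays in 17 of the 35 members, beside 3610 of all 18193 genes (19.8%). They lay above them in 1 of the 35, beside 3361 of all genes (18.5%). Together these were 51.4% of the members and 38.3% of all genes. With 3 against 3 arrays, a two-sided exact permutation test cannot go below p = 0.1, so the calls rest on limma. The count of lower members was 4, 4 and 6 without wild-type 1, 2 and 3, and 6, 11 and 3 without knockout 1, 2 and 3. Fgb and Tfpi passed in each of these 6 fits, and Thbd and F3 in 4 of 6. The higher count was 1 without wild-type 1 or knockout 2 and 0 without any other array. Over all genes the lower count likewise ran from 606 without knockout 3 to 1463 without knockout 2, beside 1549 with all arrays.

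**Figure D1:**
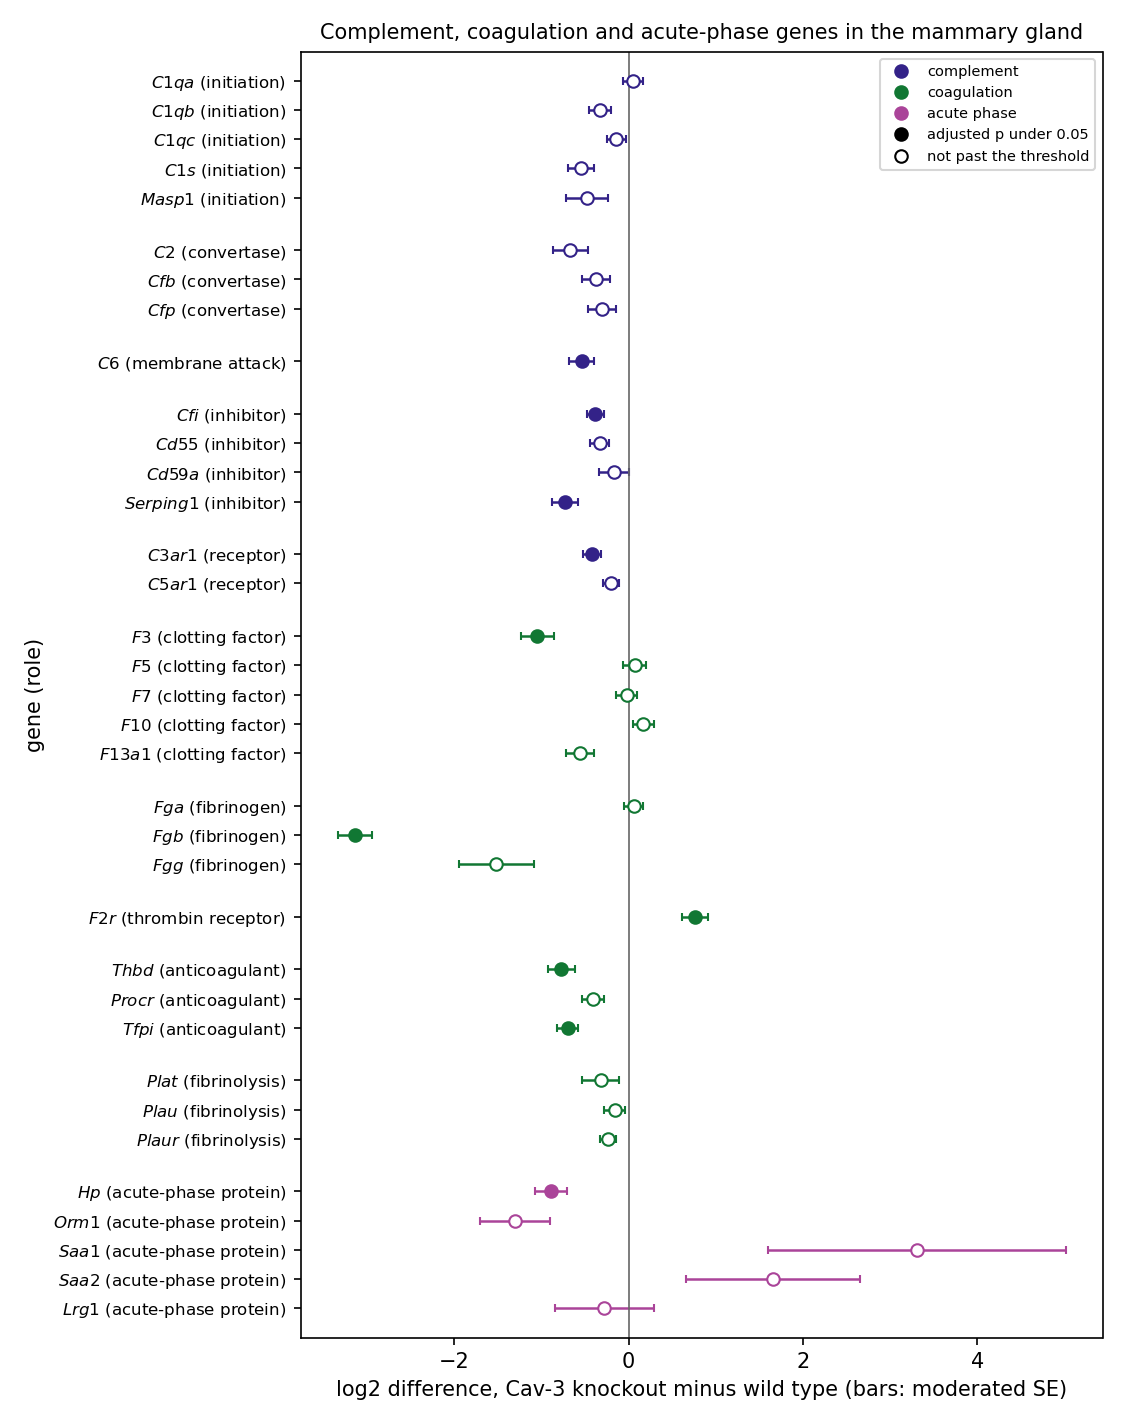
Log2 difference, knockout minus wild type, for the 35 measured members in the order of their roles, with moderated SE as bars; filled points passed an adjusted p of 0.05. Of the 10 filled points 9 lie left of 0, Fgb farthest at −3.14, while Saa1 and Saa2 lie to the right with wide bars.

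Complement genes had slightly lower knockout means along most of the chain. By sign 14 of the 15 measured genes had lower means in knockout, and 4 passed the threshold (26.7%, beside 8.51% of all genes that were lower), with a median difference of −0.37. The count was 0, 1 and 2 without wild-type 1, 2 and 3, and 1, 5 and 0 without knockout 1, 2 and 3. It was 7 with array weights or averaged probe sets and 2 with a replicate block. None was called higher by limma. At an unadjusted p under 0.05, 0 were higher and 9 lower, beside 2963 higher and 3144 lower of all 18193 genes. Averaged over the 15 genes, the wild-type arrays stood at 8.69, 8.60 and 8.57 and the knockout arrays at 8.29, 8.29 and 8.16.

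The recognition molecule C1q is built from 3 chains whose genes, C1qa, C1qc and C1qb, are neighbours on chromosome 4 and are expressed by macrophages. None of these chains passed. Group means here carry their SD over 3 arrays, wild type first. C1qa averaged 10.05 ± 0.23 against 10.09 ± 0.07, C1qc 9.20 ± 0.10 against 9.05 ± 0.15, and C1qb 9.80 ± 0.23 against 9.48 ± 0.13 (adjusted p = 0.161 by limma for C1qb). The other 2 probe sets of C1qb gave differences of −0.04 and −0.17. Their groups overlapped on the arrays. Macrophage markers stood beside this with 2 of 13 lower and 1 higher, and list means of 8.15 to 8.39 in wild type and 7.97 to 8.05 in knockout. The lower ones were Timd4 (−0.88) and Mrc1 (−0.55), and the higher one was Msr1 (0.4). Adgre1 gave a difference of −0.16 and Csf1r of −0.28, neither past the threshold. For Csf1r every knockout array was below every wild-type array.

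C1s, the protease of the C1 complex, read 10.09, 10.08 and 10.16 in wild type and 9.90, 9.29 and 9.48 in knockout. Every knockout array was below every wild-type array, but its difference of −0.55 ± 0.15 missed the threshold (adjusted p = 0.0526 by limma, and 0.0115 to 0.159 over the alternatives, lowest without knockout 1). C1s and its close copy C1s2 are similar in sequence, so reads of the copy could not be told apart. Masp1, the protease of the lectin route, averaged 7.09 ± 0.54 against 6.61 ± 0.07, with overlapping groups (adjusted p = 0.246 by limma, and 0.0267 without wild-type 3). Its 5 probe sets gave differences from −0.73 to 0.06.

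C2 and Cfb supply the catalytic subunits of the classical and alternative convertases, the enzymes that cut C3, and are neighbours on chromosome 17. C2 read 10.37, 10.02 and 10.06 in wild type and 9.32, 9.93 and 9.19 in knockout, a difference of −0.67 ± 0.20 (adjusted p = 0.0644 by limma). Knockout 2 stood closest to wild type, and without it C2 passed (0.00804). A second C2 probe set did pass, with a difference of −0.63 (adjusted p = 0.0432), and the remaining set gave −0.56 (0.0591). Cfb was 8.81 ± 0.33 and 8.44 ± 0.08, with overlapping groups (adjusted p = 0.182 by limma, and 0.0317 without wild-type 2). Properdin, encoded by Cfp, stabilises the alternative convertase; it was 8.95 ± 0.32 and 8.64 ± 0.14, and its groups overlapped as well (adjusted p = 0.282).

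C6, a subunit of the membrane pore, fell by 0.54 ± 0.14 on the log2 scale, which makes it 1.45-fold lower. It read 6.46, 6.33 and 6.30 in wild type and 5.79, 6.10 and 5.59 in knockout, and the groups did not overlap. The call (adjusted p = 0.0413 by limma) held without knockout 2 (0.0107) and was lost without any other single array (0.0965 to 0.123).

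The inhibitors leaned the same way, 4 of 4 by sign, beside 9386 of all 18193 genes. Past the threshold 2 of the 4 were lower, 50% beside 8.51% of all genes. Serping1, the C1 inhibitor that also blocks the contact proteases of coagulation, read 12.22, 12.37 and 12.04 in wild type and 11.45, 11.77 and 11.22 in knockout. It fell by 0.73 ± 0.15 and was 1.66-fold lower (adjusted p = 0.0218 by limma, 0.00883 to 0.0705 when single arrays were left out). Leaving out wild-type 1 or 2, or knockout 1 or 3, ended the call. Cfi, the protease that destroys C3b, read 6.04, 6.23 and 6.02 in wild type and 5.79, 5.63 and 5.74 in knockout. It fell by 0.38 ± 0.10 (adjusted p = 0.0413 by limma) and lost its call when any 1 array was left out (0.0633 to 0.121), with cyclic loess and with a replicate block.

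Cd55, a membrane protein that breaks up convertases, read 8.05, 7.88 and 7.99 in wild type and 7.55, 7.85 and 7.54 in knockout. The groups were apart by only a little at knockout 2, and the difference of −0.33 ± 0.11 did not pass (adjusted p = 0.103 by limma, and 0.0314 without knockout 2). A second Cd55 probe set passed with a difference of −0.61 ± 0.09 (0.0056), and another gave −0.37 (0.0808). Cd59a, which stops the assembly of the pore, was 10.01 ± 0.33 and 9.85 ± 0.14, with overlapping groups (adjusted p = 0.586); its close copy Cd59b may share probes.

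Of the receptors for complement fragments, C3ar1 passed and C5ar1 did not. C3ar1, the receptor of C3a, read 7.49, 7.41 and 7.32 in wild type and 6.87, 7.11 and 6.97 in knockout. It fell by 0.42 ± 0.10 (adjusted p = 0.0315 by limma); with a replicate block the value was 0.0569, and leaving out any array but knockout 2 gave 0.0646 to 0.103. Its other 2 probe sets gave −0.32 (0.132), with overlapping groups, and −0.35 (0.0891), with groups apart. C5ar1, the receptor of C5a on neutrophils and macrophages, read 5.04, 5.13 and 5.07 in wild type and 4.96, 4.83 and 4.85 in knockout, a difference of −0.20 ± 0.09 that did not pass (0.178). Its second set gave −0.11 ± 0.11 (0.606), with overlapping groups. Neutrophil markers moved beside these receptors: 3 of 8 were lower, S100a9 by −1.69, and the list means were 5.62 to 5.82 in wild type and 4.82 to 5.31 in knockout. Their part in the receptor values was not tested.

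Coagulation held both the steepest fall and the only rise past the threshold among the members. Of 15 measured genes 4 were lower (26.7%, beside 8.51% of all genes) and 1 higher (6.67%, beside 7.65%), with a median of −0.32. Averaged over these genes, the wild-type arrays stood at 7.12, 7.21 and 7.13 and the knockout arrays at 6.77, 6.62 and 6.51.

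Fibrinogen is a dimer of 3 chains, and its genes Fgg, Fga and Fgb follow each other on chromosome 3. Fgb, the beta chain, read 6.78, 7.39 and 7.46 in wild type and 4.34, 3.88 and 3.99 in knockout. It fell by 3.14 ± 0.20, 8.81-fold (adjusted p = 0.000521 by limma, and 0.000224 to 0.00424 over the 15 alternatives). Leaving out single arrays moved the difference between −3.35 and −3.02. The knockout readings lie under log2 5, the level below which sets were left out as dim, and were not shown to be above background, so the fold is that of the summarised values alone. Fgb passes that filter through its wild-type arrays. Fgg, the gamma chain, read 7.87, 8.86 and 7.58 in wild type and 7.17, 6.90 and 5.68 in knockout. Its groups did not overlap, but knockout 3 was far below the other 2, and the difference of −1.52 ± 0.43 missed the threshold (adjusted p = 0.0604 by limma, 0.0164 to 0.154 over the alternatives). Without dim probe sets, with array weights or with a replicate block it passed. Whether the replicate numbers pair the samples is not known, so the pass with the block is not counted as a call. Fga, the alpha chain, read only 2.29 to 2.54 in wild type and 2.42 to 2.67 in knockout, and its mean lay at percentile 5.08 of all probe sets. The difference of Fga was 0.06 ± 0.11 (adjusted p = 0.772 by limma), and its readings were not shown to be above background. The 3 chain genes were therefore not shown to change together.

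**Figure D2:**
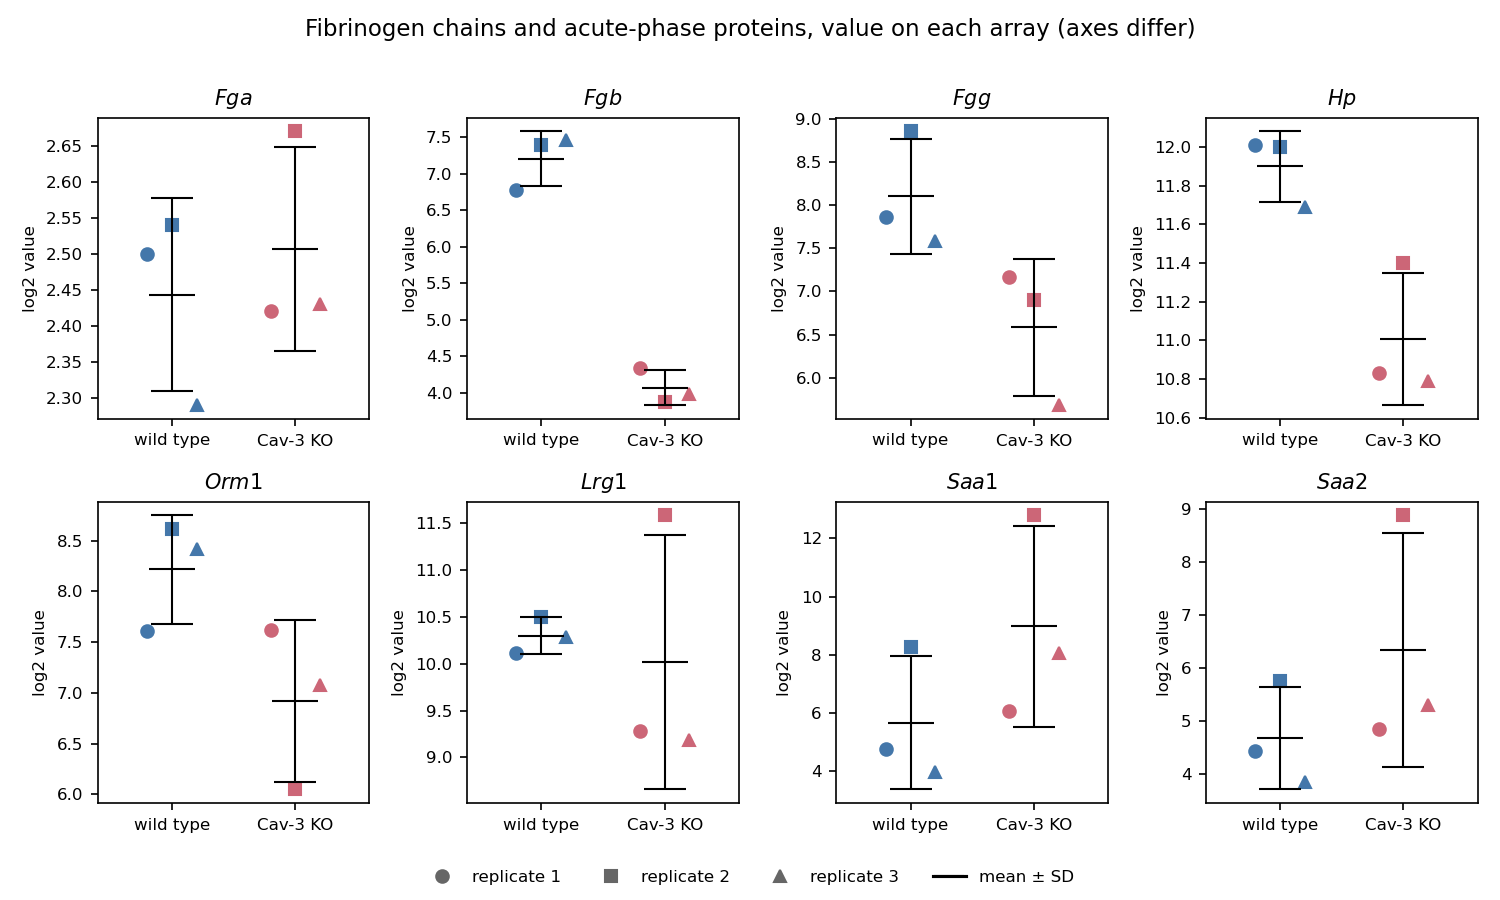
Log2 value on each array for the 3 fibrinogen chains and the 5 acute-phase proteins, wild type in blue and knockout in red, with mean ± SD in black; the axes differ between genes. Fgb falls from between 6.78 and 7.46 to between 3.88 and 4.34, while Saa1, Saa2 and Lrg1 are highest in knockout 2.

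Hepatocytes are the usual source of fibrinogen, and their markers are given beside it. Of 11 measured hepatocyte genes 0 were called by limma (1 lower and 0 higher at an unadjusted p under 0.05), with list means of 5.17 to 5.43 in wild type and 5.12 to 5.34 in knockout. Albumin, encoded by Alb, gave a difference of 0.12, with overlapping groups. Most of these markers read dim, Cps1 between 2.56 and 2.88, while Cyp2e1 read between 12.96 and 13.57. The list means include both, and the part of hepatocytes in the Fgb value was not tested.

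The promoters of the 3 chain genes are shown because these neighbours differed in their readings. Each line gives the 250 bases before the RefSeq start in build GRCm38.p6, read 5′ to 3′ along the gene. Capitals mark matches on either strand to 5 kinds of motif: STAT (TTCNNNGAA), the interleukin 6 response core (CTGGGAA), C/EBP (TTGCGCAA, and its looser form TTNNGNAA, which contains it), NF-kappa B (GGG, any 2 bases, then TTTCC) and HNF1 (GTTAAT, any base, then ATTAAC, which contains its shorter form GTTAAT).
Fgb, chr3:83049864-83050113, minus strand: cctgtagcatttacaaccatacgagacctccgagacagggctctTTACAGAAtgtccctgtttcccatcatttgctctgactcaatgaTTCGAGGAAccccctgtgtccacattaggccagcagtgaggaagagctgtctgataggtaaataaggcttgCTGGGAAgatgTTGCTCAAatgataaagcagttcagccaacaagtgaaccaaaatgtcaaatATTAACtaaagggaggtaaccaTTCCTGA
Fga, chr3:83025903-83026152, plus strand: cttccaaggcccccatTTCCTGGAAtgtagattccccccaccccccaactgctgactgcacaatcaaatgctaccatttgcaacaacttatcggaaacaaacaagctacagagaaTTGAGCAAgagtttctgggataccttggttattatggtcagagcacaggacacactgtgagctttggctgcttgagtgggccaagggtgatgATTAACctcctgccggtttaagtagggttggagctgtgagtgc
Fgg, chr3:83007474-83007723, plus strand: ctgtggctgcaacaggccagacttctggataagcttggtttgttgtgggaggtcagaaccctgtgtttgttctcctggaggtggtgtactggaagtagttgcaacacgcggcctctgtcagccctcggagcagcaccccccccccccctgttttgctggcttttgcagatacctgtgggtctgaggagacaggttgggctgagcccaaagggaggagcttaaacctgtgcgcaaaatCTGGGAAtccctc
Fgb holds a STAT match at base −162, the interleukin 6 core at −91, looser C/EBP matches at −206, −80 and −7, the last of which runs past the start, and the shorter HNF1 form at −29. Fga holds a STAT match at −234, a looser C/EBP match at −135 and the shorter HNF1 form at −43. Fgg holds the interleukin 6 core at −13 and no other of these motifs. No matches overlapped.

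Windows of 250 bases before to 50 after a start were found for 24 of the 35 members, 27 windows in all, and were compared with all 32851 RefSeq windows of that length. The STAT letters were in 2 member windows (Fga and Fgb) and in 8.3% of all windows. The interleukin 6 core was in 5 (C6, Fgb, Fgg, Lrg1 and Tfpi) and in 11.1% of all. The shorter HNF1 form was in 4 (Cd55, Cfp, Fga and Fgb) and in 7.1% of all, and the full HNF1 letters were in 0 and in 0.00913%. The looser C/EBP letters were in 14 windows of 12 genes and in 40.7% of all, the strict form in 0 and in 0.183%. The NF-kappa B letters were in 1, C3ar1, and in 1.63% of all. These are matches of letters, not measured binding.

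Tissue factor, encoded by F3, starts coagulation when blood meets cells outside the vessel. It read 8.40, 8.69 and 8.71 in wild type and 7.99, 7.37 and 7.29 in knockout. It fell by 1.05 ± 0.19 and was 2.07-fold lower (adjusted p = 0.0134 by limma). The call was lost by a small margin without wild-type 3 or knockout 3 (0.0531 and 0.0526), with differences of −0.92 to −1.27 over the single arrays left out.

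The plasma factors that act after tissue factor read low and did not pass. F7 and F10, neighbours on chromosome 8, gave differences of −0.02 ± 0.12 and 0.17 ± 0.12, and F5, the cofactor of factor X, gave 0.07 ± 0.13. Values ran from 4.75 to 5.13 for F7, from 4.40 to 4.80 for F10 and from 3.50 to 3.99 for F5, with overlapping groups. Whether such dim readings hide a difference was not tested. F13a1, the fibrin cross-linking subunit that macrophages and platelets also carry, read 11.44, 11.37 and 10.88 in wild type and 10.86, 10.63 and 10.53 in knockout. Wild-type 3 almost met the highest knockout array, and the difference of −0.56 ± 0.16 did not pass (adjusted p = 0.064 by limma, and 0.0275 without wild-type 3). Platelet markers were lower in 1 of 7 (Pf4, by 0.35), with list means of 5.99 to 6.09 in wild type and 5.99 to 6.14 in knockout.

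F2r encodes the thrombin receptor PAR1, through which thrombin signals to endothelium, fibroblasts and other cells. It read 8.87, 8.61 and 8.86 in wild type and 9.64, 9.23 and 9.76 in knockout, and every knockout array was above every wild-type array. It rose by 0.76 ± 0.15, 1.70-fold (adjusted p = 0.018 by limma). Its second probe set rose too, by 0.61 ± 0.14 (0.0285). Both probe sets carry names that mark possible matches to several transcripts, so F2r has no value when such sets are left out. Leaving out wild-type 2 or 3, or knockout 1 or 3, ended the call (0.0512 to 0.0656).

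By the chosen probe sets, the brakes of coagulation were lower on every knockout array in 3 of 3 genes, beside 19.8% of all genes. Past the threshold 2 of the 3 were lower, beside 8.51% of all genes. Thrombomodulin, encoded by Thbd, turns thrombin into an activator of protein C; it read 10.10, 10.22 and 10.32 in wild type and 9.73, 9.44 and 9.15 in knockout. Thbd fell by 0.77 ± 0.15, 1.71-fold (adjusted p = 0.0173 by limma; 0.0534 and 0.0653 without wild-type 2 or 3). Tfpi, the inhibitor of tissue factor and factor X, read 8.40, 8.78 and 8.58 in wild type and 7.85, 7.99 and 7.82 in knockout. Tfpi fell by 0.70 ± 0.12, 1.62-fold, and kept its call in the 15 alternatives (adjusted p = 0.0101 by limma, range 0.00876 to 0.0454). Of its 3 other probe sets 1 fell as well, by 0.63 ± 0.11 (0.0118). The remaining sets gave −0.25 (0.173) and 0.02 (0.936), both with overlapping groups, so the 4 sets of this gene disagree. Procr, the endothelial receptor of protein C, read 9.02, 9.21 and 8.79 in wild type and 8.67, 8.68 and 8.44 in knockout, a difference of −0.41 ± 0.13 (adjusted p = 0.0782).

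Endothelial markers were called in both directions beside these genes. Of 9 measured, 2 were lower (Kdr and Tek) and 1 higher (Cldn5), with list means of 8.28 to 8.45 in wild type and 8.15 to 8.46 in knockout. The defining genes Pecam1 and Cdh5 gave −0.27 and −0.04, neither past the threshold. Their part in the values of the brakes was not tested.

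No gene of clot removal passed by limma, of 3 measured. With an unadjusted p under 0.05, 1 was lower and 0 higher, beside 3144 lower and 2963 higher of all 18193 genes. Plaur, the receptor of urokinase, read 7.41, 7.44 and 7.59 in wild type and 7.30, 7.22 and 7.20 in knockout. Its groups were apart by a small step, with a difference of −0.24 ± 0.09 (adjusted p = 0.126). Plat, the tissue plasminogen activator, was 8.83 ± 0.24 and 8.5 ± 0.40. Urokinase itself, encoded by Plau, was dim, at 3.63 ± 0.17 and 3.48 ± 0.15. Both had overlapping groups.

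**Figure D3:**
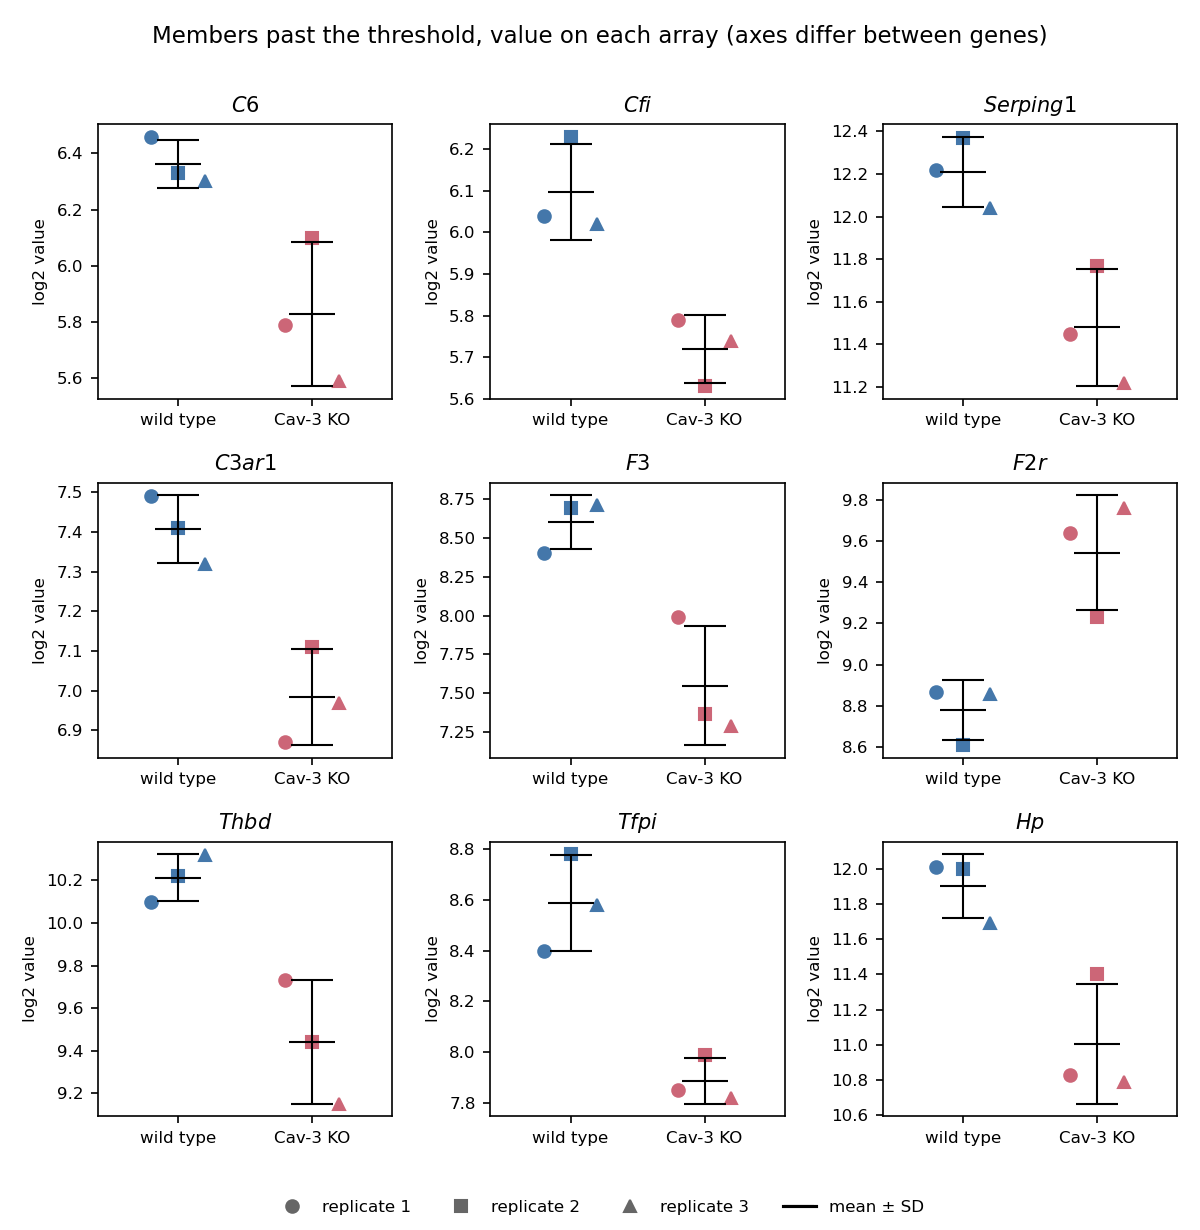
Log2 value on each array for the members past the threshold other than Fgb, wild type in blue and knockout in red, with mean ± SD in black; the axes differ between genes. The groups do not meet in any panel, and knockout stands above wild type for F2r (9.23 to 9.76 against 8.61 to 8.87) and below it for the others.

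Of the 5 acute-phase genes 1 was lower by limma, 20% beside 8.51% of all genes. None was higher by limma, and 0 were at an unadjusted p under 0.05, beside 2963 of all 18193 genes. By sign 3 were below wild type and 2 above, with a median of −0.28. Haptoglobin, encoded by Hp, binds free haemoglobin and is made in fat as well as liver. It read 12.01, 12 and 11.69 in wild type and 10.83, 11.40 and 10.79 in knockout, and fell by 0.89 ± 0.18, 1.86-fold (adjusted p = 0.0182 by limma). Leaving out wild-type 1 or 2, or knockout 1 or 3, ended the call (0.0515 to 0.0698). The white adipocyte markers given above fell beside it, Adipoq by 0.43, and brown adipocyte markers were lower in 4 of 8, with list means of 7.25 to 8.38 in wild type and 6.15 to 6.27 in knockout. The part of fat cells in the Hp value was not tested.

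Orm1 encodes orosomucoid, a plasma carrier glycoprotein. It read 7.61, 8.62 and 8.42 in wild type and 7.62, 6.05 and 7.08 in knockout. Knockout 1 and wild-type 1 were level, so the groups met, and the difference of −1.30 ± 0.40 did not pass (adjusted p = 0.0761). Without knockout 1 it passed, at −1.65 (0.0427). The Orm genes are close copies, and their transcripts may share probes.

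Saa1, which encodes the lipid-binding inflammatory protein serum amyloid A, had the largest difference of the 35 members and the widest spread. It read 4.78, 8.27 and 3.96 in wild type and 6.07, 12.80 and 8.06 in knockout. Its second probe set followed it closely, at 4.15, 8.40 and 3.32 and then 6.14, 12.86 and 8.23. Replicate 2 was the highest array of each genotype, and wild-type 2 lay above knockout 1 and 3. The difference of 3.31 ± 1.71 did not pass (adjusted p = 0.261 by limma) and was 1.40 without knockout 2. With the replicate number as a block it passed (0.0195). Whether the numbers pair the samples is not known, and the check on all probe sets cannot decide it, so this pass is not counted as a call. Saa2 read 4.43, 5.74 and 3.85 in wild type and 4.84, 8.88 and 5.29 in knockout, and the 6 arrays fell in the same order as for Saa1. Its difference was 1.66 ± 1.0 (adjusted p = 0.335).

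Saa1 and Saa2 are neighbours on chromosome 7, transcribed away from each other, and nearly identical genes, so their probe sets may read each other's transcript. Their promoters are shown because the arrays ordered both genes so alike. Capitals mark the looser C/EBP letters, the only motif of the set found in them.
Saa1, chr7:46742981-46743230, minus strand: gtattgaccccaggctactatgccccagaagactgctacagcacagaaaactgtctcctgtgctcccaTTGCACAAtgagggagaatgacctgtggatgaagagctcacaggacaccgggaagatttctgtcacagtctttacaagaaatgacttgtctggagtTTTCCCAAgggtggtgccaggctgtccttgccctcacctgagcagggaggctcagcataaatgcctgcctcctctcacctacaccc
Saa2, chr7:46751583-46751832, plus strand: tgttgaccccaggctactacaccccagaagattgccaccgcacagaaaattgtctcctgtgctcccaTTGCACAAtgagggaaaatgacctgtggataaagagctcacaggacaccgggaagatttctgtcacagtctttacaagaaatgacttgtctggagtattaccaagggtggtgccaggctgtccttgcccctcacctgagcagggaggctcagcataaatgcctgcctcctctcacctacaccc
A global alignment of these windows had 238 identical bases of 251 aligned positions (94.8%), with 11 mismatches and 2 gap positions. The C/EBP match at −182 of Saa1 and −183 of Saa2 is shared, and the one at −86 is in Saa1 alone.

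Lrg1, a secreted leucine-rich glycoprotein of neutrophils and vessels, read 10.11, 10.50 and 10.28 in wild type and 9.28, 11.58 and 9.19 in knockout. Knockout 2 lay above and the other 2 knockout arrays below wild type. With all arrays the difference was −0.28 ± 0.57 (adjusted p = 0.809 by limma). Without knockout 2 it was −1.06 and passed (0.00488), while without knockout 1 or 3 it was 0.09 or 0.14. No direction can therefore be given for Lrg1.

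**Figure D4:**
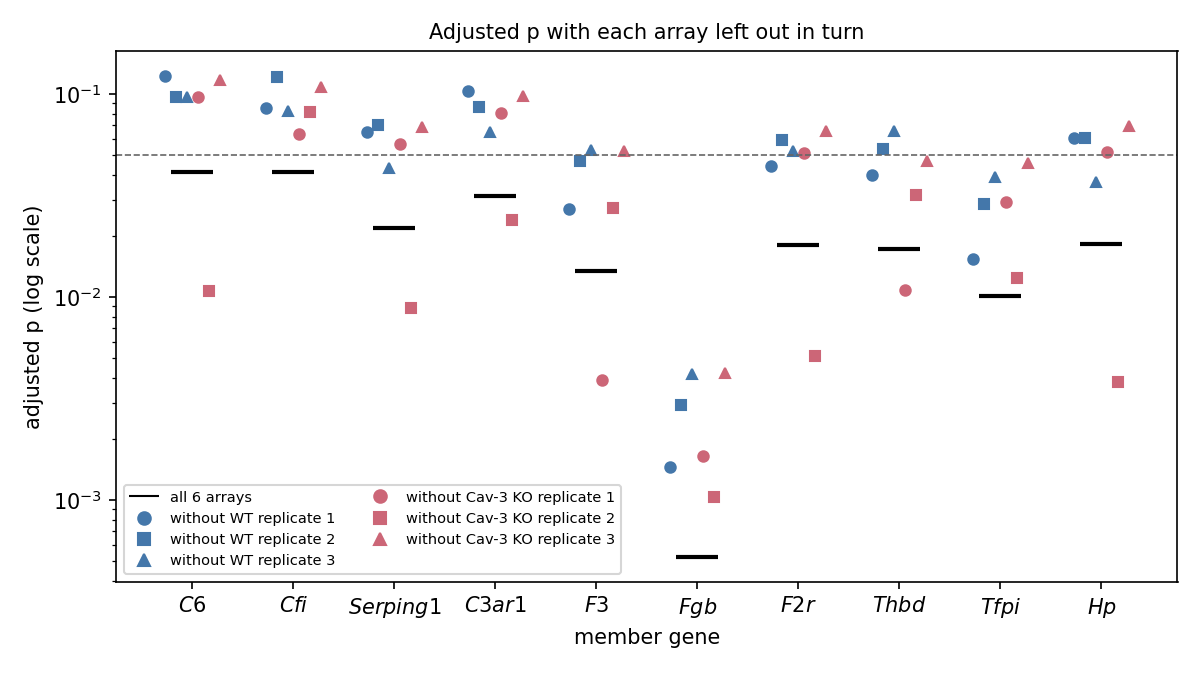
Adjusted p from limma (log axis) for the 10 members past the threshold, with all 6 arrays (black bars) and with each array left out in turn (points, blue for wild type and red for knockout); the dashed line is 0.05. Fgb and Tfpi stay below the line in each fit, and Cfi is above it in each fit that leaves out an array.

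Other genes of the 3 systems were taken from lists of 127 names, of which 107 were measured. Of these 18 were lower and 6 higher, 22.4% beside 16.2% of all genes, with a median of −0.08. In complement, 7 of 32 were lower (21.9%, beside 8.51% of all genes) and 3 higher (9.38%, beside 7.65%). Fcna, a ficolin that recognises sugars and is made by macrophages, fell by 1.15 ± 0.19, from 10.82, 10.66 and 10.22 to 9.54, 9.61 and 9.11. C1ra, the partner protease of C1s, fell by 0.75 ± 0.11, from 9.55, 9.27 and 9.55 to 8.80, 8.65 and 8.66. Cr2, the complement receptor of B cells, fell by 0.98 ± 0.15, beside B-cell and plasma-cell markers that were lower in 5 of 6, with list means of 8.74 to 8.89 in wild type and 8.15 to 8.42 in knockout. Vtn, encoding vitronectin, which blocks the pore, fell by 0.66 ± 0.08. The 3 that rose were the inhibitor genes Clu, encoding clusterin, by 1.02 ± 0.17 (2.03-fold), and Susd4, by 1.35 ± 0.30, and the pore subunit gene C9. C9, named after its values were seen, read 5.02, 4.88 and 5.13 in wild type and 5.31, 5.84 and 5.91 in knockout, and rose by 0.67 ± 0.16 (adjusted p = 0.0356 by limma). Susd4 lost its call without any array but knockout 2 (adjusted p = 0.0675 to 0.0879), and the luminal epithelial markers rose beside Clu and Susd4. The part of B cells and of epithelium in these values was not tested.

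In coagulation, 5 of 39 were lower by limma (12.8%, beside 8.51% of all genes) and 0 higher (beside 7.65%). By an unadjusted p under 0.05, 9 were lower and 0 higher, beside 3144 lower and 2963 higher of all 18193 genes. Serpina10, the protein Z-dependent inhibitor of factor X, fell by 0.77 ± 0.10, and its cofactor gene Proz, at dim readings of 3.10 to 3.57, fell by 0.34 ± 0.09. Fgl2, a fibrinogen-like protein with prothrombin-cleaving activity, fell by 0.56 ± 0.11. Tbxas1, which makes thromboxane, and Tbxa2r, its receptor, fell by 0.38 ± 0.08 and 0.40 ± 0.10. Ggcx, the carboxylase that matures vitamin K-dependent factors, differed by −0.40 ± 0.11 and missed the threshold (adjusted p = 0.0512). Proz lost its call when any 1 array was left out, and Tbxa2r when any but wild-type 1 was. Without knockout 3 or wild-type 2 or 3 the call of Fgl2 ended, and without knockout 3 or any wild-type array that of Tbxas1.

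In the acute-phase list, 6 of 36 were lower (16.7%, beside 8.51% of all genes) and 3 higher (8.33%, beside 7.65%). Serpina1b, an alpha-1-antitrypsin gene with near-identical copies, fell by 1.01 ± 0.12 and was 2.01-fold lower. Serpina3n fell by 0.90 ± 0.16 and Itih3, an inter-alpha-inhibitor heavy chain, by 0.91 ± 0.14. Il1r1, the receptor of interleukin 1, fell by 0.72 ± 0.11. Stat3, the transcription factor of interleukin 6 signalling, rose by 0.55 ± 0.11. Lbp, which hands bacterial lipopolysaccharide to its receptor, rose by 1.80 ± 0.36 (3.47-fold), from 8.19, 8.17 and 8.30 in wild type to 9.51, 10.99 and 9.55 in knockout. Knockout 2 was again the highest array, but unlike Saa1 the wild-type arrays lay close together, so the groups were well apart. Lbp lost its call without wild-type 1, 2 or 3 (up to adjusted p = 0.0589), and Stat3 without wild-type 2 or knockout 3 (up to 0.0534). The remaining higher gene, Cd14, was named after its values were seen. It read 9.75, 9.73 and 9.82 in wild type and 10.70, 12.06 and 10.77 in knockout. Cd14 rose by 1.41 ± 0.33 (adjusted p = 0.03 by limma).

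**Figure D5:**
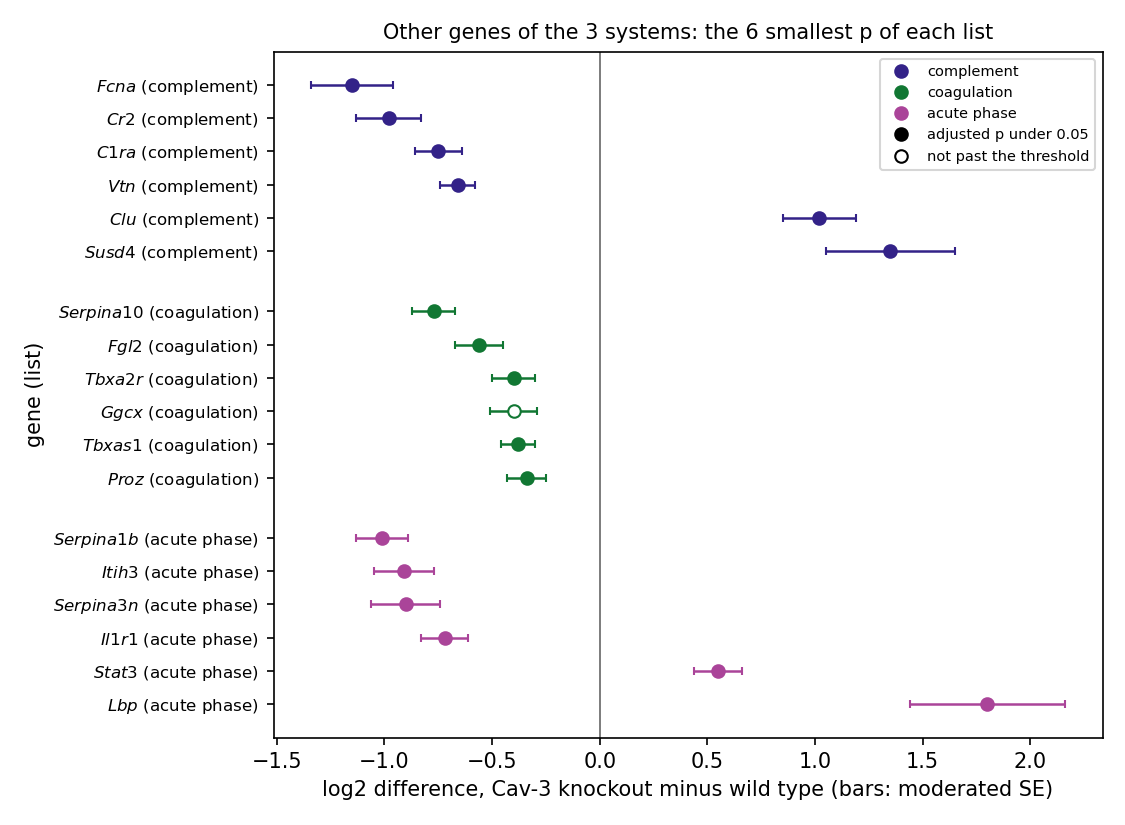
Log2 difference, knockout minus wild type, for the 6 genes with the smallest p in each list of other complement, coagulation and acute-phase genes, with moderated SE as bars; the open point, Ggcx, did not pass. Clu, Susd4, Stat3 and Lbp lie right of 0, Lbp farthest at 1.80, and the remaining 14 lie left.

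Fibroblast markers, given here because fibroblasts express C1s, C1ra and Serping1, were lower in 3 of 10 (Dpt, Pi16 and Dpp4) and higher in 0 by limma (1 at an unadjusted p under 0.05). Their list means were 11.31 to 11.58 in wild type and 11.15 to 11.63 in knockout, so the groups overlapped. Their part in the values of those genes was not tested.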

How the data were processed

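The members and the lists used here were chosen with earlier results of these data known. The authors deposited log2 values, 1 per probe set and array, made with RMA (per the submitters' processing notes), which subtracts background, equalises the distributions of arrays and summarises each probe set. Which RMA version ran is not given in the sources used here. RMA would hide a shift shared by most transcripts.

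Of 45101 probe sets 64 controls were left out and 45037 were tested. The platform annotation named 34945 by 1 gene symbol, 932 by several (not named here) and left 9160 unnamed; symbols were updated through a RefSeq table of GRCm38.p6, which 204 did not match. The 35 members had 60 probe sets. Knockout was compared with wild type by limma 3.58.1 in R 4.3.3 (lmFit, eBayes, 4 residual degrees of freedom), adjusted by Benjamini-Hochberg over all tested sets, and tested on simulated data. Lists were counted and not tested.

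All members were named. Those past the threshold or with groups apart got each array's value. Of each list of other genes the 6 with the smallest p were named, and C9 and Cd14 in addition. Fibrinogen and serum amyloid promoters came from RefSeq. Figures were drawn with matplotlib 3.10.9. Alternatives were median centring, cyclic loess, leaving out dim sets (not above log2 5 on at least 3 arrays), a trended robust prior, array weights, the replicate number as a block, averaged probe sets, no _x_at or _s_at sets, a threshold of 0.10 and leaving out each array. Over all probe sets, same-numbered arrays' deviations from their group means correlated at −0.0542, 0.185 and −0.0179. With 3 arrays in each group these values cannot decide whether replicate numbers pair the samples.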

Additional observations from a re-analysis of the deposited data

How the results depend on the processing

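Over 15 alternatives, 517 values of single members were obtained: 442 kept their direction and side of the threshold, 35 lost the call, 28 gained it and 12 turned sign, the cause not being tested. The filter on dim sets dropped 4 members (F5, F10, Fga and Plau), and leaving out _x_at and _s_at sets dropped C1s, F2r, Procr and Saa2. Without those sets 0 members and 0 coagulation members were higher, since F2r had no other set. Lower complement members numbered 7 with array weights and 7 with averaged probe sets. At a threshold of 0.10, 15 members, 7 coagulation members and 2 acute-phase members were lower. With the replicate block, 2 members were higher (F2r and Saa1, hence 1 acute-phase member), and 2 complement and 7 coagulation members were lower; 2 of 3 same-numbered pairs had no positive correlation.

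Leaving out single arrays gave 3 to 11 lower and 0 to 1 higher members: 0 to 5 lower in complement, 3 to 4 lower and 0 to 1 higher in coagulation and 0 to 2 lower in the acute phase. Of the other genes, 9 to 16 were lower and 1 to 5 higher. Signs that turned were all of uncalled genes. They ranged over these fits from −0.04 to 0.18 (C1qa), −0.04 to 0.21 (F5), −0.30 to 0.02 (Cd59a), −0.10 to 0.09 (F7), −0.02 to 0.11 (Fga) and −1.06 to 0.14 (Lrg1, called without knockout 2). F7 was 0.01 with cyclic loess, F10 −0.05 with averaged sets and Masp1 0.06 without _x_at and _s_at sets. The median of the members stayed between −0.42 and −0.27.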
